A study of Mus musculus with 2 samples.

Results

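Circadian clock transcripts were followed through 7 genes, Nr1d1, Arntl, Clock, Per1, Per2, Dbp and Nfil3, of the 23679 genes found in either of 2 count tables. The genes were chosen by name and not by a measured value, though with earlier results of these data known. Their counts were read in single cells of the mouse gut. The cells were group 3 innate lymphoid cells (ILC3s), lymphocytes without rearranged antigen receptors that secrete IL-22, sorted from the lamina propria of the small intestine. The mice were 18-month-old C57BL/6 males, and no genotype, treatment or time of day of collection is given in the labels. There was 1 group with 2 samples, replicate 1 carrying sample tag 6 and replicate 2 carrying sample tag 12, each read from a library of its own on the BD Rhapsody system. Whether the replicates were separate animals or pools is not stated. The p-values therefore measure only how alike the differences within these 2 samples were, and that spread may be technical. Cells of young mice or without Cxxc1, the chromatin factor named in the series title, were not analysed here.

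The circadian clock is a loop of transcription and repression that runs in nearly every cell. CLOCK and BMAL1, the product of Arntl, bind E-box motifs and switch on the Per genes, Nr1d1 and Dbp. PER proteins then repress CLOCK and BMAL1, while the nuclear receptor REV-ERBα, the product of Nr1d1, represses Arntl and Nfil3 through ROR elements, where the receptor RORα activates. In mice REV-ERBα and NFIL3 are also known for roles in the development and function of innate lymphoid cells.

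The motifs of this loop were looked for in the RefSeq promoter windows (build GRCm38.p6, 250 bases before to 50 bases after each start site), of which 10 were listed for 6 of the 7 genes and none for Per2. An exact E-box, CACGTG, was found in 1 window, that of Per1 at 166 bases before the start, and 7.15% of all 32851 promoter windows hold this motif. The core of the ROR element, AGGTCA on either strand, lay in windows of Arntl, Clock, Per1 and Nfil3, and in 16.3% of all windows. The D-box TTANGTAA (2.32% of all windows) and the cAMP response element TGACGTCA (1.79%), searched on both strands, were not in any of the 10 windows. The shorter motif TGACG, which can overlap the longer element, was in both Per1 windows and in the Nfil3 window, and in 20.8% of all windows. A match is a run of letters and not a measured binding site. The 5 windows below belong to the genes that were called between cell groups or whose level differed between the libraries beyond counting error in the results that follow. For Per1 and Arntl, which have more than 1 window, it is the one with an E-box or ROR core, and capitals mark the E-box CACGTG and the ROR core AGGTCA or its reverse complement TGACCT.
Nr1d1, chr11:98775328-98775627, minus strand: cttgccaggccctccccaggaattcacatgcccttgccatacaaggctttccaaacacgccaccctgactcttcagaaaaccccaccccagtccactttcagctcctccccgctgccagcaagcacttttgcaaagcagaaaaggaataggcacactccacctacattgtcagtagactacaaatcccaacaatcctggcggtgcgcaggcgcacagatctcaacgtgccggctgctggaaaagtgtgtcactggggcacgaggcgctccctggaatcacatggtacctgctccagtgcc
Per1 window 1, chr11:69098699-69098998, plus strand: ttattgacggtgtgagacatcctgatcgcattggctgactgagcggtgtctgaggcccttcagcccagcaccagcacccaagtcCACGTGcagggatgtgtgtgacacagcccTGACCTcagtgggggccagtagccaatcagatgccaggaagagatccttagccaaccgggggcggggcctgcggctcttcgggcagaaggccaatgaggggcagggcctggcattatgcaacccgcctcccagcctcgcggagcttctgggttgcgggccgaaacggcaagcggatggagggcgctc
Arntl window 2, chr7:113207261-113207560, plus strand: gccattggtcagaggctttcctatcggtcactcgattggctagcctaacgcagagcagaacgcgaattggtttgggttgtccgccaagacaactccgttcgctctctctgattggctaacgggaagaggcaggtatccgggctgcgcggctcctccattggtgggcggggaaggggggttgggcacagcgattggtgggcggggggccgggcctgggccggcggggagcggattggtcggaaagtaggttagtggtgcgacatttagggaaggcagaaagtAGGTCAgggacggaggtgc
Nfil3, chr13:52980990-52981289, minus strand: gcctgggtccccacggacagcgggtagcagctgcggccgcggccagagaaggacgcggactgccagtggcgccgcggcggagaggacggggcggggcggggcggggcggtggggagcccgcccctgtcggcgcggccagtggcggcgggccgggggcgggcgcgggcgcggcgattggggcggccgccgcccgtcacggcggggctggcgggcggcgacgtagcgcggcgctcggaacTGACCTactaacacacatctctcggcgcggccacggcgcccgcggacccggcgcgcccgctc
Dbp, chr7:45704997-45705296, plus strand: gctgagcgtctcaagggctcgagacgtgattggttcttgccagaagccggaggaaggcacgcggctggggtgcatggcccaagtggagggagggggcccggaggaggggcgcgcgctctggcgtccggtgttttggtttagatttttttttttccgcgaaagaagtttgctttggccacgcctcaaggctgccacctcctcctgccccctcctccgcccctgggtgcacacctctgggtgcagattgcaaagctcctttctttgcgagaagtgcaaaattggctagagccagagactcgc
The Per1 window holds both motifs, with the ROR core 137 bases before the start. The Arntl window has the ROR core 31 bases inside the transcript, and the Nfil3 window has it 12 bases before the start. The Nr1d1 and Dbp windows show neither run of letters.

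**Figure D1:**
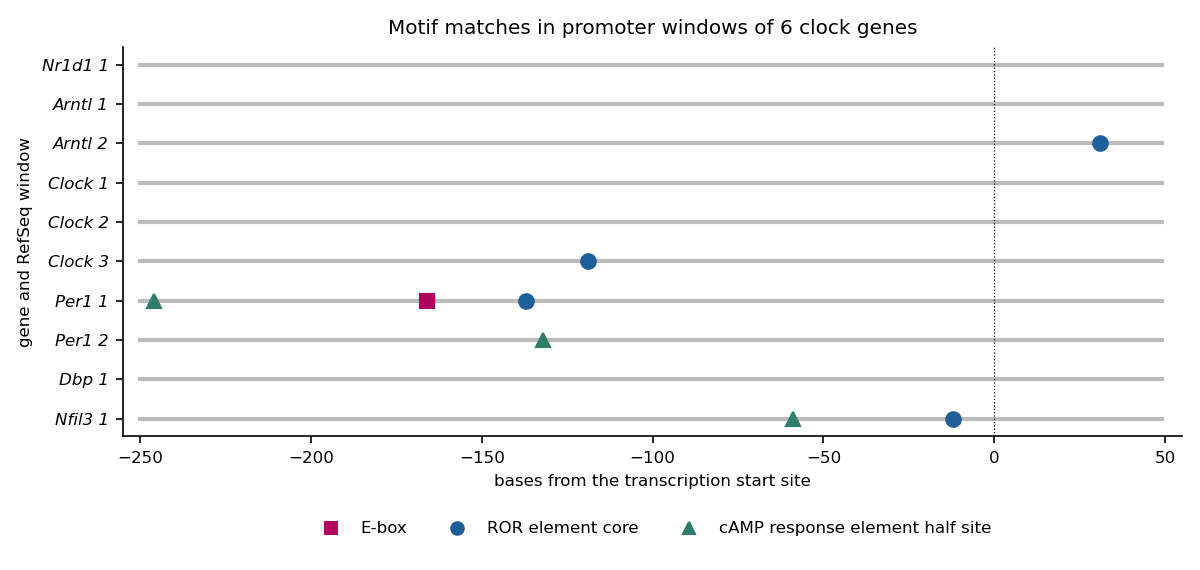
Matches of 3 motifs in the 10 promoter windows of 6 clock genes, with the distance from the transcription start site in bases on the x axis and 1 row per gene and window. The E-box appears in Per1 window 1 only, at -166, and ROR cores appear in 4 windows.

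After leaving out cells under 300 genes or over 25% mitochondrial UMIs, replicate 1 held 3337 cells with 6939790 UMIs and replicate 2 held 3840 cells with 6810214 UMIs (medians 1880 and 1674 UMIs per cell). Cells were placed in 4 groups by their UMIs (unique molecular identifiers, 1 per captured transcript). CD3-positive cells, with at least 1 UMI of Cd3d, Cd3e or Cd3g and called T in the plots, numbered 1149 and 1117 in replicates 1 and 2. Among cells with no CD3 UMI, 608 and 438 had an Ncr1 UMI, 128 and 79 had a Ccr6 or Cd4 UMI but no Ncr1 UMI, and 1452 and 2206 were the remaining cells. The label ILC3 was set against its markers, and all 7 ILC3 markers on the list, among them Il22, Kit and Il23r, had UMIs in every cell group of both replicates. Having any UMI in a sum over many cells is a weak check of the label, and the CD3-positive group met it too. CD3-positive cells, however, made up 34.4% and 29.1% of the cells, with Trac UMIs in 62.6% and 57.3% of them, so the sort held cells with T cell transcripts. The CD3-negative groups also held T cell receptor constant chain UMIs, in 82.1% and 75.6% of Ncr1-positive cells, 44.5% and 50.6% of Ccr6 or Cd4 cells and 66.7% and 69.2% of remaining cells. The beta chain gene Trbc1 was lower in CD3-positive than in Ncr1-positive cells (log2 ratio -0.52 ± 0.11 SE, edgeR adjusted p = 0.00182), whereas Trac UMIs were in 9.05% and 4.79% of Ncr1-positive cells, 5.47% and 16.5% of Ccr6 or Cd4 cells and 6.89% and 10.4% of remaining cells. The libraries stood apart in stromal collagen markers, whose summed level was 3874 CPM (UMIs per 1000000 UMIs of the summed cells) in replicate 1 and 106.8 CPM in replicate 2. The count tables shared 303 cell indices, 10 of them among the sampled cells.

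The clock genes differed widely in the number of transcripts behind them. Over both replicates Per1 had 5509 UMIs, Nfil3 5464, Nr1d1 2682, Arntl 731, Clock 588, Dbp 166 and Per2 52. Each kept cell held few of these: after thinning every cell to 1000 UMIs, which left out 186 and 313 shallower cells, 36.1% of cells in replicate 1 and 36.5% in replicate 2 had no transcript of any of the 7 genes. A further 42% and 42.1% had a transcript of 1 of them, and no cell had more than 5. Clock genes are active in nearly all cell types, so no cell type here can serve as a blank for free RNA.

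Nr1d1, a heme-binding nuclear receptor on chromosome 11 that represses Arntl and Nfil3, was lower in CD3-positive cells than in Ncr1-positive and remaining cells. Its level was 155 and 134 CPM in CD3-positive cells of replicates 1 and 2, against 265 and 193 CPM in Ncr1-positive cells, 273 and 143 CPM in Ccr6 or Cd4 cells and 267 and 177 CPM in remaining cells. Both CD3-positive values lay below both values of the Ncr1-positive and remaining cells, whereas the Ccr6 or Cd4 value of replicate 2 rested on 22 UMIs and fell among the CD3-positive values. The share of cells with an Nr1d1 UMI was 23.3% and 18.3% in CD3-positive cells, against 35% and 24.4% in Ncr1-positive and 33% and 21% in remaining cells. After thinning the shares were 12.7% and 10.3% in CD3-positive cells, against 18.9% and 16.7% in Ncr1-positive and 21.3% and 14.8% in remaining cells, so at equal depth the CD3-positive share was again below both in each replicate. Most cells with an Nr1d1 UMI had only 1, as in 183 of the 268 such CD3-positive cells of replicate 1.

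By edgeR's quasi-likelihood test on UMIs summed per sample and cell group, with the sample as a block, Nr1d1 was 1.54-fold lower in CD3-positive than in Ncr1-positive cells (log2 ratio -0.62 ± 0.13 SE, adjusted p = 0.0022, n = 2 samples). All 7 clock genes passed the low-count filter, and Nr1d1 was the single call among them, where 11.6% of all 9637 genes tested were called, 5.94% higher and 5.64% lower in CD3-positive cells. Replicate 1 alone gave a log2 ratio of -0.76 and replicate 2 alone -0.48. Against remaining cells Nr1d1 was 1.49-fold lower in CD3-positive cells (log2 ratio -0.58 ± 0.12 SE, edgeR adjusted p = 0.0018), with -0.74 in replicate 1 and -0.40 in replicate 2. In this comparison too it was the single clock gene called, with 13.8% of all genes called, 6.49% higher and 7.29% lower. Against Ccr6 or Cd4 cells the log2 ratio of Nr1d1 was -0.44 ± 0.20 SE (95% interval -0.84 to -0.03, edgeR adjusted p = 0.187), with -0.74 in replicate 1 and 0.08 in replicate 2, so it was not called and changed sign between the replicates. Leaving out CD3-negative cells with T cell receptor UMIs kept both calls, while without the sample block edgeR gave adjusted p = 0.675 and 0.797. Sums over cells cannot tell fewer expressing cells from fewer transcripts per cell.

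**Figure D2:**
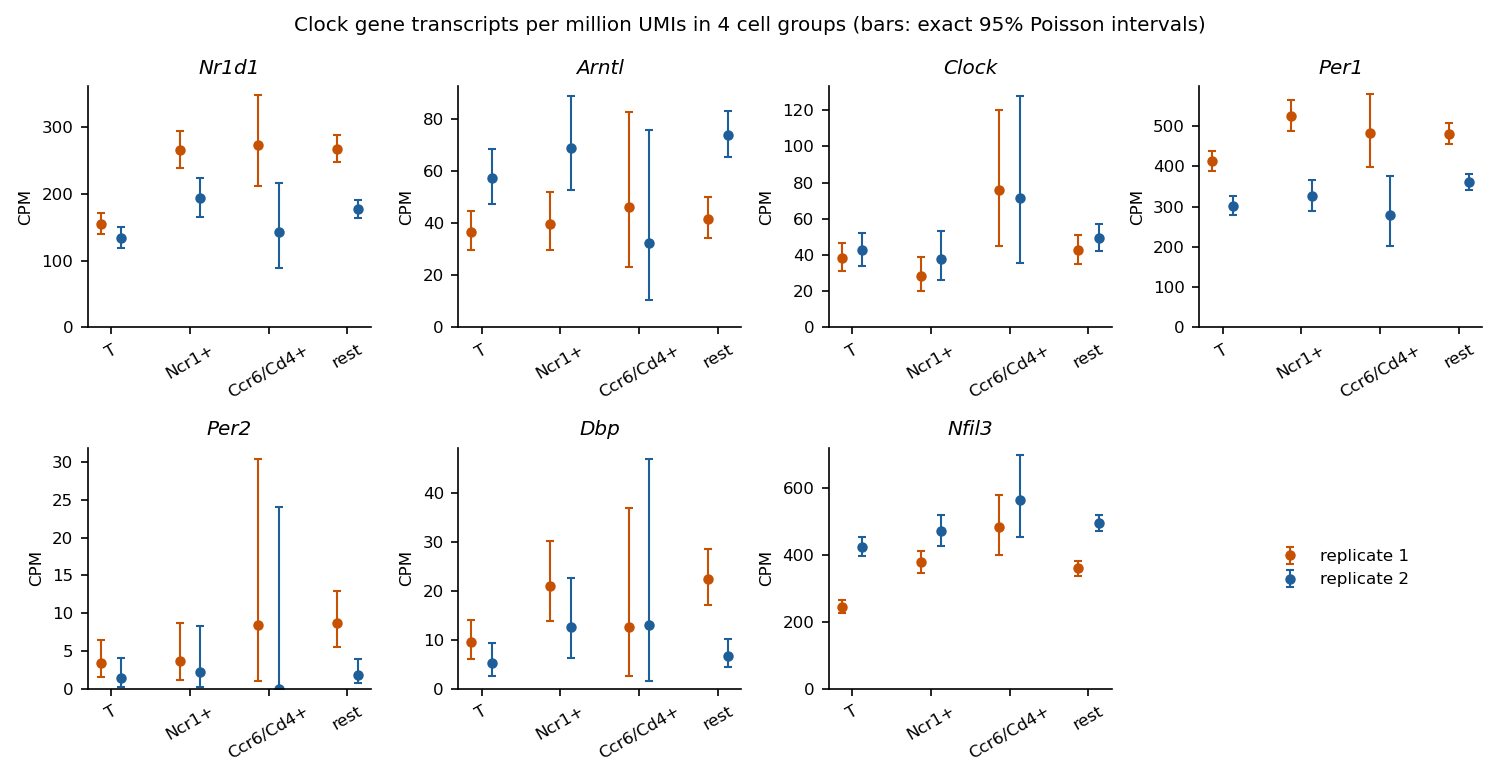
CPM of the 7 clock genes in sums over CD3-positive (T), Ncr1-positive, Ccr6 or Cd4 and remaining cells, with replicate 1 in orange and replicate 2 in blue and bars giving exact 95% Poisson intervals for counting error. Nr1d1 is lowest in T cells at 155 and 134 CPM, while Clock is highest in Ccr6 or Cd4 cells at 75.7 and 71.5 CPM.

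Nfil3, a basic leucine zipper repressor on chromosome 13 that opposes DBP at D-boxes and is needed for innate lymphoid cell development in mice, was lowest in CD3-positive cells in each replicate. It reached 246 and 425 CPM in CD3-positive cells of replicates 1 and 2, against 378 and 471 CPM in Ncr1-positive, 483 and 565 CPM in Ccr6 or Cd4 and 360 and 494 CPM in remaining cells. Within each replicate the CD3-positive value was below the other 3 groups, but replicate 2 was so much higher that the CD3-positive values overlap those of the Ncr1-positive and remaining cells. Nfil3 UMIs were in 35.8% and 47.7% of CD3-positive cells and in 53.9% and 62% of Ccr6 or Cd4 cells.

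Against Ccr6 or Cd4 cells, Nfil3 was 1.48-fold lower in CD3-positive cells (log2 ratio -0.57 ± 0.15 SE, edgeR adjusted p = 0.0165, n = 2 samples). It was the single clock gene called there, with 10% of all genes called, 5.48% higher and 4.54% lower in CD3-positive cells. Replicate 1 alone gave -0.89 and replicate 2 alone -0.23, so the difference was mostly that of replicate 1. The call was lost at a log2 ratio of -0.58 when cell groups were drawn from thinned counts (edgeR adjusted p = 0.0703), at -0.61 when CD3-negative cells with T cell receptor UMIs were left out (edgeR adjusted p = 0.138) and at -0.50 without the sample block (edgeR adjusted p = 0.617). All 6 stromal markers were also called higher in CD3-positive than in Ccr6 or Cd4 cells by edgeR and 3 of them by DESeq2, as were 3 of 4 tested markers of cytotoxic lymphocytes by both. Stromal markers summed to 3690 and 121.1 CPM in CD3-positive cells, against 525.5 and 25.98 CPM in Ccr6 or Cd4 cells. Cells with at least 2 UMIs of stromal, B or plasma cell, myeloid or epithelial markers were left out in another analysis. There the Nfil3 log2 ratio was -0.50 (edgeR adjusted p = 0.00965). The part of stromal transcripts alone in the Nfil3 difference was not tested. Against Ncr1-positive cells the Nfil3 log2 ratio was -0.34 ± 0.13 SE (edgeR adjusted p = 0.0845), and against remaining cells it was -0.35 ± 0.12 SE (edgeR adjusted p = 0.0563). The last passed 0.05 in 6 of 12 other analyses with a test. Here too replicate 1 had the larger difference, with -0.60 against -0.10 in replicate 2 for Ncr1-positive cells and -0.50 against -0.21 in replicate 2 for remaining cells.

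Clock, on chromosome 5, encodes the partner of BMAL1 in the activating pair. Its level was 38.1 and 42.6 CPM in CD3-positive cells, 28.4 and 37.9 CPM in Ncr1-positive cells, 75.7 and 71.5 CPM in Ccr6 or Cd4 cells and 42.7 and 49.3 CPM in remaining cells. Both Ccr6 or Cd4 values stood above all 6 others, though they rest on 18 and 11 UMIs, and the other 3 groups lay between 28.4 and 49.3 CPM. In Ncr1-positive against Ccr6 or Cd4 cells the log2 ratio was -1.11 ± 0.34 SE (95% interval -1.81 to -0.41), which missed the threshold with an edgeR adjusted p of 0.0616. None of the 7 clock genes was called in this comparison, where 4.56% of all genes were (2.37% higher and 2.19% lower in Ncr1-positive cells), while Clock alone of the 7 had an unadjusted p under 0.05 (0.0032). Clock passed in 3 of 12 other analyses, with RLE scaling and with DESeq2 at adjusted p = 0.0491 and 0.0492 among them, and the highest edgeR adjusted p was 0.488, with cell groups from thinned counts. In CD3-positive against Ccr6 or Cd4 cells Clock had a log2 ratio of -0.77 ± 0.31 SE (edgeR adjusted p = 0.132).

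Arntl, on chromosome 7, encodes BMAL1 and was not called in any comparison of cell groups. It had 36.6 and 57.2 CPM in CD3-positive cells, 39.6 and 68.9 CPM in Ncr1-positive cells, 46.2 and 32.5 CPM in Ccr6 or Cd4 cells and 41.6 and 73.8 CPM in remaining cells. In 3 of the 4 groups replicate 2 was the higher, and the groups overlapped. The log2 ratio was -0.16 for CD3-positive against Ncr1-positive cells (95% interval -0.58 to 0.26) and -0.27 against remaining cells (95% interval -0.61 to 0.08).

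Per1 and Per2 encode the PER repressors, and Per1 is also quickly switched on by stress hormone and cAMP signals. Per1, on chromosome 11, had 413 and 302 CPM in CD3-positive cells, 525 and 326 CPM in Ncr1-positive cells, 483 and 279 CPM in Ccr6 or Cd4 cells and 481 and 361 CPM in remaining cells. Every replicate 1 value was above every replicate 2 value, and within a replicate the groups lay close together. The log2 ratio of CD3-positive to Ncr1-positive cells was -0.20 (95% interval -0.45 to 0.04), and that of CD3-positive to Ccr6 or Cd4 cells was 0.02 (95% interval -0.30 to 0.33). Per2, on chromosome 1, was close to the limit of detection, at 3.43 and 1.42 CPM in CD3-positive cells, 3.74 and 2.3 CPM in Ncr1-positive cells, 8.41 and 0 CPM in Ccr6 or Cd4 cells and 8.76 and 1.91 CPM in remaining cells. In the Ccr6 or Cd4 cells of replicate 2 no Per2 UMI was counted, which allows up to 19.5 CPM (3 counts). Its 95% interval for CD3-positive against remaining cells was -2.22 to 0.14 on the log2 scale, and that against Ncr1-positive cells was -1.83 to 1.39, so moderate differences in Per2 between cell groups were not detectable at this depth.

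Dbp, on chromosome 7, encodes an activator at D-boxes and is a direct output of CLOCK and BMAL1. It had 9.53 and 5.2 CPM in CD3-positive cells, 20.9 and 12.6 CPM in Ncr1-positive cells, 12.6 and 13 CPM in Ccr6 or Cd4 cells and 22.3 and 6.81 CPM in remaining cells. Both CD3-positive values lay below both Ncr1-positive values, on 25 and 11 UMIs against 28 and 11 UMIs. The log2 ratio of CD3-positive to Ncr1-positive cells was -1.13 ± 0.39 SE (95% interval -1.95 to -0.32, edgeR adjusted p = 0.0646), and that to remaining cells was -0.89 ± 0.34 SE (edgeR adjusted p = 0.0911). Of 12 other analyses with a test, 2 and 1 passed 0.05, with both under it when cells with markers of other cell types were left out (edgeR adjusted p = 0.0209 and 0.0156), while DESeq2 gave adjusted p = 0.279 and 0.541. Replicate 1 gave -1.17 for Dbp against remaining cells, and replicate 2 gave -0.37.

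**Figure D3:**
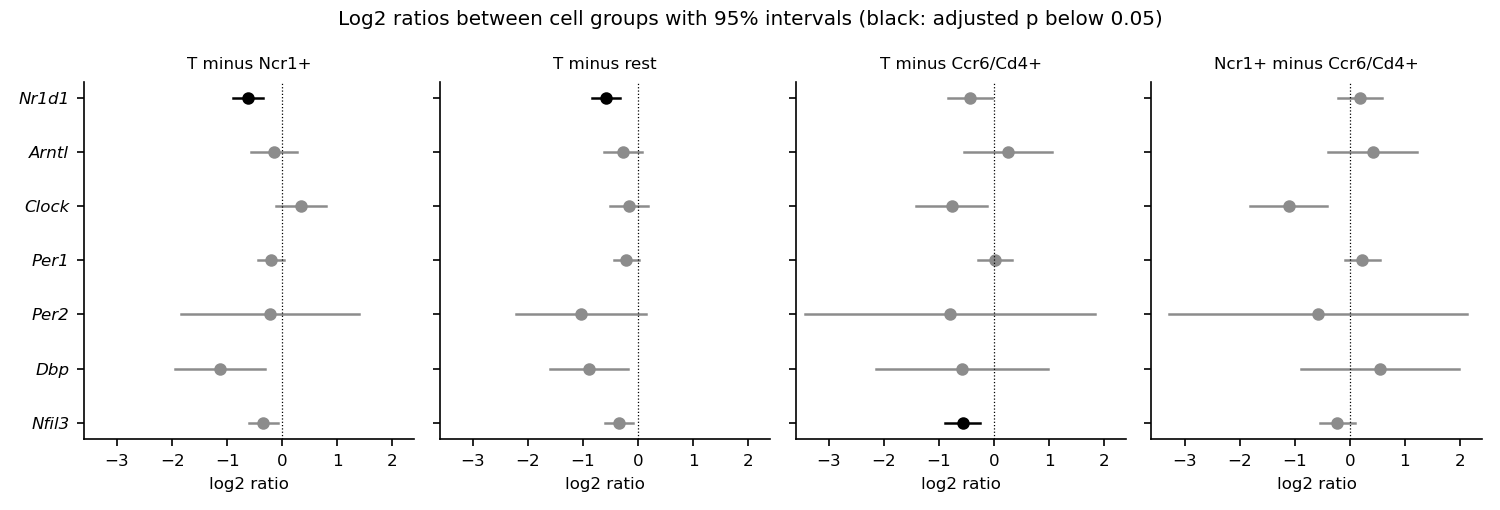
Log2 ratios of the 7 clock genes between cell groups from edgeR, with 95% intervals as bars and calls at an adjusted p under 0.05 in black. Nr1d1 is called lower in T than in Ncr1-positive and remaining cells, Nfil3 is called lower in T than in Ccr6 or Cd4 cells, and Per2 has the widest intervals.

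The median log2 ratio of the 7 genes was -0.22 in CD3-positive against Ncr1-positive cells, -0.35 against remaining cells and -0.57 against Ccr6 or Cd4 cells, beside 0.02, -0.01 and 0.10 over all genes tested. These comparisons share the CD3-positive sums, so they are not independent of each other. In Ncr1-positive against Ccr6 or Cd4 cells the median was 0.19, beside 0.10 over all genes.

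In a list of 18 other clock genes, 16 of them tested, 3 were called lower and none higher in CD3-positive than in Ncr1-positive cells, where 5.64% of all genes tested were called lower and 5.94% higher. The median log2 ratio of the 16 was 0.04, beside 0.02 over all genes. Npas2, which can stand in for CLOCK, had a log2 ratio of -1.53 ± 0.42 SE, Bhlhe40, a repressor that competes for E-boxes, -0.40 ± 0.09 SE and Rora -0.28 ± 0.09 SE (edgeR adjusted p = 0.0157, 0.00257 and 0.0347). DESeq2 called Bhlhe40 and Rora here and not Npas2, and it called the same pair against remaining cells. Npas2 had 4.57 and 5.68 CPM in CD3-positive cells against 17.9 and 11.5 CPM in Ncr1-positive cells, with no overlap. Against remaining cells Bhlhe40, Npas2 and Usp2 were called lower in CD3-positive cells (7.29% of all genes), and against Ccr6 or Cd4 cells Npas2 was (4.54% of all genes). Rora, Bhlhe40 and Nr1d2 had the most UMIs of this list, and in Ncr1-positive against Ccr6 or Cd4 cells neither edgeR nor DESeq2 called any of the 16, with Btrc alone at an unadjusted edgeR p under 0.05. The paralogue of Nr1d1, Nr1d2, had a log2 ratio of -0.04 ± 0.13 SE in CD3-positive against Ncr1-positive cells.

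Other gene groups differed between the same cells. Of 15 immediate early genes, which answer cell activation within minutes, 5 were called in CD3-positive against Ncr1-positive cells. Atf3 (log2 ratio -0.97), Nr4a1 (-0.68) and Nr4a3 (-0.47) were called lower (5.64% of all genes) and Egr1 (0.55) and Fos (0.35) higher (5.94% of all genes). DESeq2 called the 3 lower genes and neither Egr1 nor Fos. In CD3-positive cells 7 of the 15 were called lower and none higher against remaining cells (7.29% and 6.49% of all genes), and likewise 7 and none against Ccr6 or Cd4 cells (4.54% and 5.48% of all genes). In Ncr1-positive against Ccr6 or Cd4 cells 5 were called lower and Nr4a3 higher (2.19% and 2.37% of all genes). Of 6 glucocorticoid-responsive genes, Klf9 was lower (log2 ratio -0.59 ± 0.18 SE) and Ddit4 higher (log2 ratio 1.94 ± 0.38 SE) in CD3-positive than in Ncr1-positive cells (5.64% and 5.94% of all genes). DESeq2 called Ddit4 alone of this list there. Neither edgeR nor DESeq2 called any of 6 heat shock genes in CD3-positive against Ncr1-positive or remaining cells. At an unadjusted edgeR p under 0.05 there were none and 1 of them. Against Ccr6 or Cd4 cells edgeR called Hsp90aa1 and Hspa1b lower (4.54% of all genes), and DESeq2 called Hsp90aa1 alone. ILC3 markers summed to 5905 and 5776 CPM in CD3-positive cells, against 8191 and 7243 CPM in Ncr1-positive and 8267 and 7625 CPM in remaining cells. The part of these genes in the lower Nr1d1 of CD3-positive cells was not tested.

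Between the libraries the clock genes did not move as 1 block: Nr1d1, Per1, Per2 and Dbp were higher in replicate 1, and Arntl and Nfil3 were higher in replicate 2. This is a description of 1 library against 1 library, with intervals that cover counting error only. Over all kept cells Nr1d1 stood at 225 CPM in replicate 1 and 165 CPM in replicate 2, Per1 at 464 and 337 CPM, Per2 at 5.76 and 1.76 CPM and Dbp at 16.9 and 7.2 CPM. The ratios of replicate 2 to replicate 1 were 0.735 for Nr1d1 (95% interval 0.68 to 0.794), 0.726 for Per1, 0.306 for Per2 and 0.427 for Dbp. Of 8165 genes with at least 100 UMIs, 32.9% had a ratio of at most 0.8 and 7.12% of at most 0.5, and the median log2 ratio was -0.11. Arntl and Nfil3 ran the other way. Of the same 8165 genes, 15% had a ratio of at least the inverse of 0.8, so rises past that mark were less common than falls to 0.8. The shares of genes at the higher ratios of Arntl and Nfil3 were not counted. Arntl stood at 39.5 CPM in replicate 1 and 67.1 CPM in replicate 2, a ratio of 1.7 (95% interval 1.46 to 1.98), and Nfil3 at 325 and 471 CPM, a ratio of 1.45 (95% interval 1.38 to 1.53). Clock had a ratio of 1.18, with an interval of 0.997 to 1.39 that includes 1.

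The split held inside the cell groups. Nr1d1, Per1 and Per2 were higher in replicate 1 in 4 of 4 groups and Dbp in 3 of 4, whereas Nfil3 was higher in replicate 2 in 4 of 4 and Arntl and Clock in 3 of 4. With TMM scaling these counts were the same. Of the same 8165 genes, 26.9% were higher in replicate 1 in all 4 groups and 16.2% were higher in replicate 2 in all 4, so such agreement is common in these libraries. Among the other clock genes, the PAR-type activator Tef had a ratio of replicate 2 to replicate 1 of 0.541, Per3 of 0.494 and Btrc, a ubiquitin ligase subunit that marks PER proteins for destruction, of 0.416. Cry1, a clock repressor, had a ratio of 1.54 (28.7 CPM in replicate 1 and 44.2 CPM in replicate 2) and Rora of 1.35. Nr1d2 went against its paralogue with a ratio of 1.12 (95% interval 1.03 to 1.21), and Bhlhe40 had a ratio of 1.11 (95% interval 1.08 to 1.13). Ciart, Hlf and Usp2 had ratios of 1.23, 0.917 and 0.912 with intervals that include 1.

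**Figure D4:**
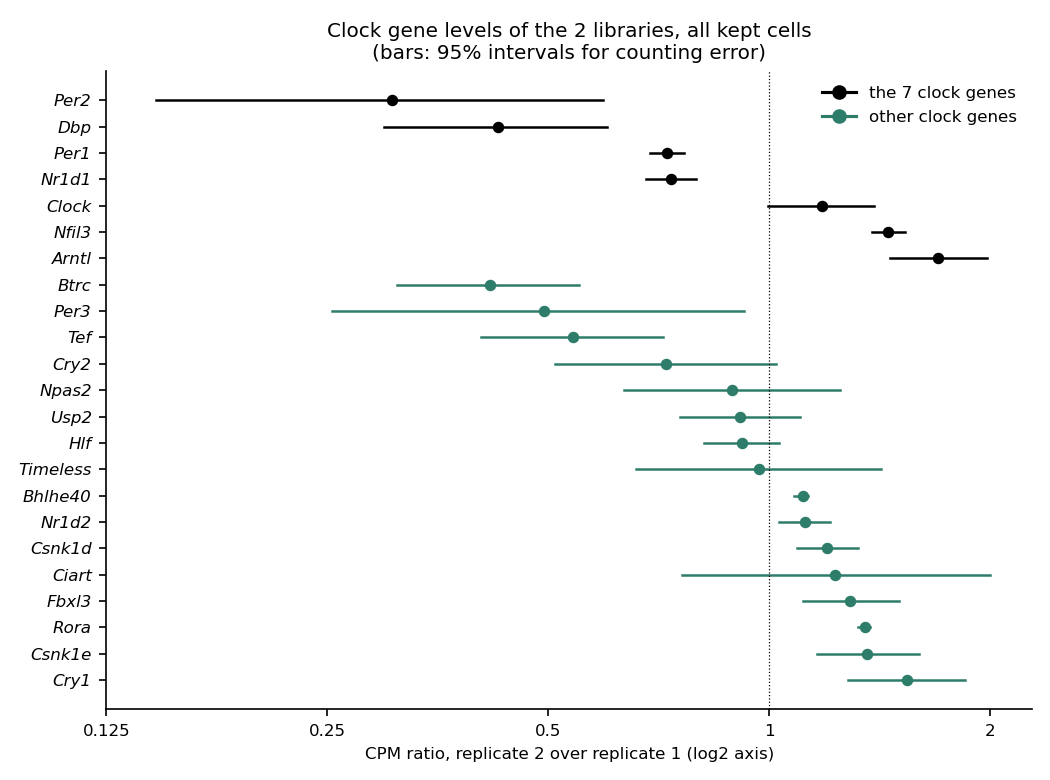
CPM ratio of replicate 2 over replicate 1 in all kept cells, on a log2 axis, for the 7 clock genes (black) and for the other clock genes with at least 40 UMIs (green), with 95% intervals for counting error. Per2, Dbp, Per1 and Nr1d1 lie below 1, and Nfil3 and Arntl lie above 1 at 1.45 and 1.7.

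The time of day at collection is not in the labels, and library, tag and any animal or time cannot be told apart. Several other genes moved with the libraries. The immediate early genes Fos, Fosb, Egr1 and Dusp1 had ratios of replicate 2 to replicate 1 of 0.291, 0.423, 0.198 and 0.385. In the same list Nr4a3 and Nr4a2 were higher in replicate 2, with ratios of 1.92 and 1.12. The glucocorticoid-responsive genes Zfp36 and Tsc22d3 had ratios of 0.352 and 0.681, whereas Ddit4 had 1.73. Heat shock genes were higher in replicate 2, with Hspa1a at 39.1 CPM in replicate 1 and 403 CPM in replicate 2 and a ratio of 10.3. Stromal marker UMIs were in 38.7% of cells in replicate 1 and 3.02% in replicate 2. The part of these in the clock gene ratios was not tested.

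Across the 8 sums of sample and cell group, Nr1d1 ran closest to Per1 among the clock genes, with a Pearson r of 0.84 in log2 CPM, followed by Dbp at 0.68. It did not follow Arntl (r = 0.01) or Nfil3 (r = -0.11), and Per1 and Nfil3 had an r of -0.54. These values were not taken within libraries, and in every cell group Per1 was higher in replicate 1 and Nfil3 in replicate 2. Within replicate 1 both were lowest in CD3-positive cells, at 413 and 246 CPM. Within replicate 2 Per1 was lowest in Ccr6 or Cd4 cells and Nfil3 in CD3-positive cells. Of 8165 genes compared, those most like Nr1d1 were Fuca2 (r = 0.98), Sept2 and Ckb (both r = 0.97). For Per1 they were Nceh1 (r = 0.99), Dazap2 (r = 0.98) and Zbtb38 (r = 0.97), and for Nfil3 they were D230025D16Rik, Ern1 (both r = 0.98) and Ssx2ip (r = 0.97). Arntl was nearest to Saraf (r = 0.98), Psip1 and Osbpl8 (both r = 0.97), Clock to Slc12a2 (r = 0.98), Polr1c (r = 0.97) and Zranb1 (r = 0.96), and Dbp to Add1 (r = 0.96), Acsf2 (r = 0.95) and Snx19 (r = 0.94). Per2, with under 100 UMIs, was not compared. These are descriptions over 8 points that share 2 libraries and their depth.

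Cells with an Nr1d1 transcript were last set against cells without, within each sample and cell group and at 1000 UMIs per cell. There were 562 Nr1d1-positive cells and 2589 Nr1d1-zero cells in replicate 1, and 479 Nr1d1-positive and 3048 Nr1d1-zero cells in replicate 2. The 16 sums behind this test come from 2 samples, so the 4 cell groups of a sample enter as if they were replicates and the p-values may be too small. Per1 stood at 491 CPM in Nr1d1-positive cells and 472 CPM in Nr1d1-zero cells of replicate 1, and at 367 and 335 CPM in those of replicate 2. Nfil3 stood at 358 CPM in Nr1d1-positive and 339 CPM in Nr1d1-zero cells of replicate 1, and at 574 and 451 CPM in those of replicate 2. Both genes were slightly higher in Nr1d1-positive cells of each replicate, and neither was called. By edgeR the log2 ratio was 0.07 ± 0.09 SE for Per1 (95% interval -0.10 to 0.25, adjusted p = 0.922) and 0.18 ± 0.09 SE for Nfil3 (95% interval 0.01 to 0.36, unadjusted p = 0.0378, adjusted p = 0.584). Of 3160 genes tested 0.475% were called, 0.285% higher and 0.19% lower in Nr1d1-positive cells, and Arntl, Clock, Per2 and Dbp had too few UMIs per sum to pass the low-count filter. DESeq2 called neither Per1 nor Nfil3.

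Summed over all cell groups, an analysis added after seeing the data, Nr1d1-positive against Nr1d1-zero cells gave log2 ratios of 0.04 for Arntl, 0.26 for Clock and 0.69 for Dbp (95% interval -0.19 to 1.57), none of them called by edgeR. The mix of cell groups enters these values, as 142 of 562 Nr1d1-positive and 972 of 2589 Nr1d1-zero cells of replicate 1 were CD3-positive. Within cell groups and with no low-count filter, edgeR gave -0.05 for Arntl, 0.14 for Clock and 0.47 for Dbp (95% interval -0.37 to 1.31). Per2 had -2.06 there (95% interval -4.54 to 0.41), and none of them was called. The genes that follow are from the main fit, within each sample and cell group and with the low-count filter. Genes with the smallest p values that were higher in Nr1d1-positive cells were Zfp36 (log2 ratio 0.60 ± 0.08 SE), Rgcc, Nfkbia, Cd69 and Dusp1 (0.31 ± 0.07 SE), with edgeR adjusted p from 1.5e-08 to 0.0112. DESeq2 kept Rgcc, Nfkbia and Cd69 but not Zfp36 (adjusted p = 1) or Dusp1 (adjusted p = 0.141). Zfp36 encodes a protein that speeds the decay of inflammatory mRNAs, Dusp1 a MAP kinase phosphatase that is itself an immediate early gene, Nfkbia an inhibitor of NF-κB, and Cd69 is an early activation marker. Those lower were Igha (log2 ratio -2.18 ± 0.14 SE), Jchain, Lilr4b, Igkc and Plac8 (-1.04 ± 0.21 SE), among which Igha, Igkc and Jchain are genes of plasma cells. DESeq2 kept Lilr4b alone of these, with an adjusted p of 0.323 for Igha and 0.165 for Jchain. Of 13 immediate early genes tested, edgeR called Dusp1 and Fosb higher in Nr1d1-positive cells (0.285% of all genes) and DESeq2 called none, and of 7 other clock genes tested neither edgeR nor DESeq2 called any, with Hlf and Nr1d2 at an unadjusted edgeR p under 0.05.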

How the data were processed

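Single-cell UMI counts of 2 tagged samples, replicates 1 and 2 of aged small-intestinal ILC3s, were used as deposited. Per the file headers, the authors' counts came out of version 1.8 of BD's WTA Multiplex Rhapsody Analysis Pipeline. Its reference joined GRCm38, PhiX and GENCODE M19, UMIs were corrected by recursive substitution, and no normalization was applied. HISAT2 2.0.5, Bowtie2 and the builds GRCm38.p6 and mm10 are listed in the submitters' processing notes. Sample tags came from the authors' deposited tag calls. Left out were 10666 and 10916 cells of other tags, 572 and 987 tag multiplets and 1128 and 674 cells with no tag call. No doublet caller was run. A gene missing from 1 table was read as 0 there (19031 genes were in both).

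Kept cells had at least 300 genes and at most 25% mitochondrial UMIs. Counts were summed per sample and cell group and tested with edgeR 4.0.16 (R 4.3.3): TMM scaling, filterByExpr, the quasi-likelihood test, the sample as a block because both groups of a contrast come from the same tagged sample, and Benjamini-Hochberg adjustment over all genes tested with a threshold of 0.05. The 6 genes that define the groups were left out. The Nr1d1 split used cells thinned to 1000 UMIs and sums per sample, cell group and Nr1d1 status. CPM values are UMIs per 1000000 UMIs of a sum without TMM scaling, with exact Poisson intervals, and shares of cells have exact binomial intervals. Single-replicate ratios use a prior count of 0.125. Alternatives were other scaling, filters, DESeq2 1.42.0, thinning, other cell filters and groupings, and leaving out each replicate. Scripts were tested on simulated data. The genes, lists and tests were chosen with earlier results of these data known. All 7 genes were followed in each comparison of cell groups and libraries, Per2 had too few UMIs for the likeness search, and Per1 and Nfil3 alone passed the low-count filter in the Nr1d1 split. Also named are genes of other lists that were called or most abundant, the 3 genes most like each clock gene, and the 5 smallest p-values per direction in the Nr1d1 split. Gene positions come from GENCODE M21. A gene of these lists is not reported here, and its values are in no list count or sum.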

Additional observations from a re-analysis of the deposited data

How the results depend on the processing

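The lower Nr1d1 in CD3-positive cells kept its direction in all 14 other analyses of each comparison and passed 0.05 in 11 of 12 with a test, both against Ncr1-positive and against remaining cells. The exception was the fit with no replicate block, with log2 ratios of -0.63 (edgeR adjusted p = 0.675) and -0.58 (edgeR adjusted p = 0.797). Leaving out a replicate gave -0.76 to -0.48 against Ncr1-positive and -0.74 to -0.40 against remaining cells. Nfil3 in CD3-positive against Ccr6 or Cd4 cells passed in 9 of 12, and was -0.50 without the block (edgeR adjusted p = 0.617), -0.58 with groups from thinned counts (0.0703), -0.61 without CD3-negative cells holding T cell receptor UMIs (0.138), and -0.89 to -0.23 with a replicate left out.

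Counts of called genes, 1116, 1328, 966 and 439 in CD3-positive against Ncr1-positive, remaining and Ccr6 or Cd4 cells and in Ncr1-positive against Ccr6 or Cd4 cells, fell without the replicate block to 84, 71, 112 and 10. DESeq2 called 688 and 718 in the comparisons with Ncr1-positive and remaining cells. Groups from thinned counts gave 658 (Ncr1-positive), 470 (Ccr6 or Cd4) and 199 (Ncr1-positive against Ccr6 or Cd4). Without CD3-negative cells holding T cell receptor UMIs, which leaves fewer genes tested, there were 369 calls for CD3-positive against Ncr1-positive and 220 for Ncr1-positive against Ccr6 or Cd4 cells. The 15 calls of the Nr1d1 split became 29 with no low-count filter, 4 with DESeq2, 1 with cell group as the only block and no replicate block, 99 without thinning, 25 with the looser cell filter and 96 over all cell groups, and 4 to 10 with a replicate left out. The cause was not tested.

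Log2 ratios that changed sign were all of genes not called. For CD3-positive against Ncr1-positive cells, Arntl became 0.073 with thinned cells and Clock -0.086 with groups from thinned counts. For CD3-positive against Ccr6 or Cd4 cells, Per1 became -0.035 (RLE scaling), -0.033 (DESeq2), -0.0041 (groups from thinned counts), -0.11 (stricter cell filter), -0.080 (no T cell receptor UMIs) and -0.038 (no cells with 1 CD3 UMI), and Dbp became 0.53 with thinned cells and 5.88 with groups from thinned counts, where it has almost no UMIs. In the Nr1d1 split Per1 became -0.012 with no low-count filter. With replicate 1 left out, CD3-positive against Ccr6 or Cd4 cells gave 0.08 for Nr1d1 and 4.44 for Per2, and Ncr1-positive against Ccr6 or Cd4 cells gave 5.06 for Per2, whose UMIs are then 0 in the Ccr6 or Cd4 cells. With replicate 2 left out, CD3-positive against Ccr6 or Cd4 cells gave -0.26 for Arntl and -0.15 for Per1, and Ncr1-positive against Ccr6 or Cd4 cells gave -0.16 for Arntl. Of 400 values for the clock genes under other settings, 364 were counted as unchanged. With a test this meant the same direction and side of the threshold, and most of the 400 are of genes not called. With a replicate left out it meant lying within the spread of the 2 single-replicate values. Those values nearly fix that outcome themselves, so it is no check, and some sign changes above are among the 364. Of 42 values for called ratios, 37 were unchanged and 5 lost the call. Depth limits Per2 and Dbp most.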
